A study of Cricetulus griseus with 16 samples.

Results

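The genes described here encode the sensors of endoplasmic reticulum (ER) stress, the transcription factors they act through and the proteases that free some of those factors from the membrane, namely Xbp1, Ern1, Atf6, Atf6b, Mbtps1, Mbtps2, Creb3, Creb3l2 and Eif2ak3. They were taken by gene name from the read counts of CHO cells (ATCC CCL-61), a line from Chinese hamster ovary, and 8 of the 9 names were found among 20824 listed genes. Creb3 had no row under that name, and since 4423 genes are listed by identifier only, its level is not given here. Creb3l2 (ENSCGRG00001008511) had a row with 0 counts in all 16 libraries, which leaves 7 genes with values. The cells were kept at 37 °C, or heated to 40 °C (1 h or 6 h) or 42.5 °C (1 h only), with 4 biological replicates (A, B, C and D) per group. The same line, grown in medium with serum, was used in all groups, and 1 group at 37 °C was the control for both durations.

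The ER folds secreted and membrane proteins, and the unfolded protein response (UPR) is the set of signals that unfolded proteins in its lumen set off. IRE1, encoded by Ern1, removes an intron from Xbp1 mRNA in the cytoplasm, and only the spliced form encodes the active factor. ATF6 travels to the Golgi, where site-1 protease and site-2 protease (Mbtps1, Mbtps2) release its cytosolic part, while PERK (Eif2ak3) phosphorylates eIF2α and so slows translation in general. These steps act on RNA splicing and on proteins, and counts per gene do not separate spliced from unspliced Xbp1 and show neither cleavage nor phosphorylation.

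Depth was between 10504192 and 14668365 counts per library. Levels are counts scaled to library size (CPM), with TMM factors over all libraries together, and 3 counts correspond to 0.205 to 0.286 CPM, a floor for counting error only. In 37 °C replicate D, 1880 of 10565 genes (17.8%) were 1.5-fold or more away from the mean of replicates A to C, whereas each of those had between 134 and 159 such genes against the mean of the other two. The study left out this library, so the groups below hold 3 libraries at 37 °C and 4 in each heated group, and values with replicate D are given where they end the call of a gene named here. Among the marker genes examined in these 15 libraries, Vim (1823 to 2382 CPM), Fn1 (313 to 435 CPM) and Lgals1 (389 to 512 CPM) were high, while Cdh2 was at most 0.776 CPM. Of the epithelial markers, Epcam had at most 1 count and Cdh1 was between 1.70 and 4.14 CPM, and Krt8 and Krt18 had no row by name. The granulosa markers Foxl2, Fshr and Cyp19a1 had 0 counts in every library, Amh was between 1.90 and 7.13 CPM and Inha between 1.02 and 2.52 CPM. Ptprc, of leukocytes, had at most 1 count and Pecam1, of endothelium, at most 4.

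Xbp1 (ENSCGRG00001019438), the transcription factor of the IRE1 arm, had its highest level after 6 h at 40 °C and stayed within the control range after 1 h at 42.5 °C. Since RNA was taken from whole cultures, a change in part of the cells and a smaller change in all of them cannot be told apart. At 37 °C the libraries A, B and C were at 38.0, 31.0 and 36.1 CPM. After 1 h at 40 °C, libraries A to D were at 47.3, 37.6, 47.4 and 42.9 CPM. Library B of that group fell within the control range and the others lay above it. After 6 h at 40 °C the values were 44.4, 52.7, 57.2 and 58.0 CPM, and at 42.5 °C they were 35.4, 37.2, 31.4 and 35.8 CPM. All libraries at 6 h were above all control libraries, whereas those at 42.5 °C lay within the control range. The group means were 35.0 ± 3.60 CPM (SD, n = 3) at 37 °C, 43.8 ± 4.63 (SD, n = 4) after 1 h at 40 °C, 53.1 ± 6.23 (SD, n = 4) after 6 h at 40 °C and 35.0 ± 2.49 (SD, n = 4) at 42.5 °C. The spread between replicates was wider than counting error alone, with coefficients of variation of 7.12% to 11.7% against 3.89% to 5.09% from counting.

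**Figure D1:**
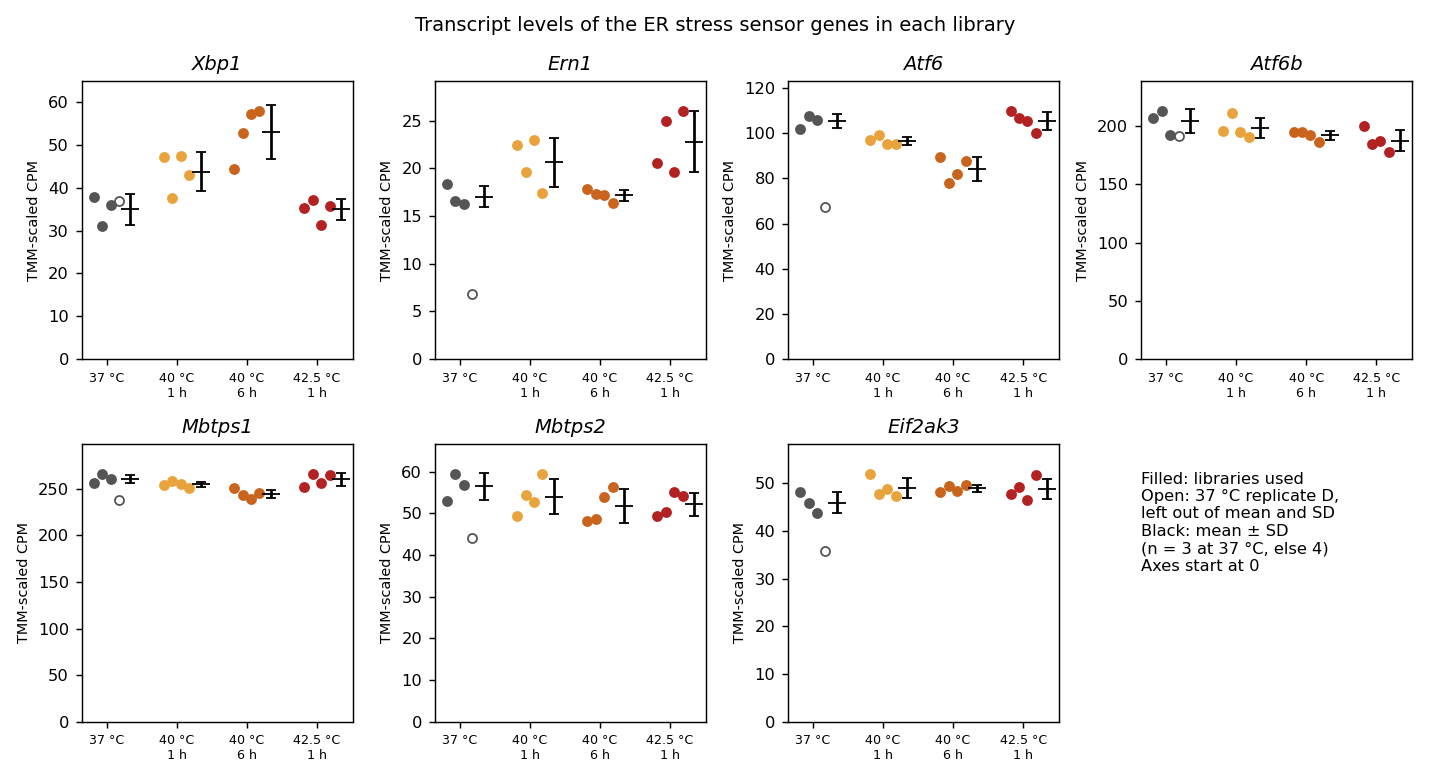
Level of each of the 7 genes with values in every library, in CPM on axes of their own, for 37 °C, 1 h at 40 °C, 6 h at 40 °C and 42.5 °C (1 h), with points for libraries, bars for the mean and SD over the libraries used and an open point for 37 °C replicate D, which is in no mean. Xbp1 is highest after 6 h at 40 °C (44.4 to 58.0 CPM), where Atf6 is lowest (77.8 to 89.3 CPM), and Ern1 has its highest libraries at 42.5 °C (up to 26.0 CPM).

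Against 37 °C, Xbp1 rose 1.52-fold after 6 h at 40 °C (95% interval 1.33 to 1.73), which in log2 is 0.60 (SE 0.09, adjusted p = 0.000116 by edgeR's quasi-likelihood test). Adjusted p values here are corrected by Benjamini-Hochberg over all genes tested, a gene passed the test at an adjusted p under 0.05, and a passing gene with a fold change of 1.5 or more in either direction is called a differentially expressed gene (DEG). Xbp1 ranked 373 of 10499 genes by the size of its change, and it was the sole DEG among the 7 genes in any of the 5 comparisons. The fold lies close to that threshold, and it fell below it without 37 °C replicate B (log2 fold change 0.52), without 40 °C, 6 h replicate C (0.56) or D (0.56), and with control replicate D included (0.58). The test itself was passed in each of 13 alternative analyses. After 1 h at 40 °C the log2 fold change was 0.33 (SE 0.09, adjusted p = 0.0745), which did not pass. It passed without replicate B of that group (0.39, adjusted p = 0.0127), without a filter on low counts (adjusted p = 0.00787) and by the Wald test of DESeq2 (adjusted p = 0.0385). With the replicate letter as a block in edgeR's model it passed too (0.33, adjusted p = 0.00083). At 42.5 °C it was -0.01 (SE 0.08, adjusted p = 0.943), with a 95% interval of the fold from 0.887 to 1.11.

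The differences between heated groups were tested directly. At 40 °C, Xbp1 was higher after 6 h than after 1 h by 0.28 in log2 (SE 0.09, adjusted p = 0.0311), with library A at 6 h inside the range of the 1 h libraries. This call was lost without replicate B (0.21, adjusted p = 0.103) or D (0.27, adjusted p = 0.0573) of the 1 h group, and without replicate B (0.28, adjusted p = 0.0592), C (0.24, adjusted p = 0.102) or D (0.23, adjusted p = 0.0892) of the 6 h group. For 1 h of heat, Xbp1 was lower at 42.5 °C than at 40 °C, with a log2 difference of -0.33 (SE 0.08, adjusted p = 0.00347) and no overlap between the libraries. That difference passed in 13 of 13 alternatives, between -0.40 and -0.28. In order of level, neither 42.5 °C and 37 °C nor 37 °C and 1 h at 40 °C differed past the threshold, and 6 h at 40 °C stood above 1 h at 40 °C. In the RefSeq annotation of another assembly, CriGri-PICRH-1.0, the span of Xbp1 overlaps Maml3 and a pseudogene. Strandedness is not stated for the counts, so reads from such an overlap could not be told apart, and Maml3 itself had 132 to 237 counts per library with a log2 fold change of -0.29 (adjusted p = 0.0196) after 6 h at 40 °C.

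Ern1 (ENSCGRG00001003211) encodes IRE1, the kinase and endoribonuclease that splices Xbp1 mRNA, and it rose after 1 h at 42.5 °C but differed little from the control after 6 h at 40 °C. The control libraries A, B and C were at 18.3, 16.6 and 16.2 CPM. Libraries A to D heated for 1 h at 40 °C were at 22.4, 19.7, 23.0 and 17.4 CPM, and after 6 h at 17.8, 17.3, 17.2 and 16.4 CPM. Library D at 1 h lay in the control range and the other 3 above it, while all 4 at 6 h lay inside it. The libraries at 42.5 °C were at 20.6, 25.0, 19.6 and 26.0 CPM, all above the control libraries. Means were 17.0 ± 1.13 CPM (SD, n = 3) at 37 °C, 20.6 ± 2.61 (SD, n = 4) after 1 h at 40 °C, 17.2 ± 0.601 (SD, n = 4) after 6 h at 40 °C and 22.8 ± 3.18 (SD, n = 4) at 42.5 °C. With 188 to 330 counts per library, Ern1 had the lowest counts of the 7 genes.

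At 42.5 °C, Ern1 was 1.33-fold higher than at 37 °C (95% interval 1.14 to 1.55), which in log2 is 0.41 (SE 0.10, adjusted p = 0.00445) and lies under the fold of a DEG. In 37 °C replicate D, Ern1 had 77 counts and 6.85 CPM. With that library among the controls the difference grew to 0.65 but no longer passed (adjusted p = 0.109), and it passed in the other 12 alternatives. After 1 h at 40 °C the log2 fold change, with SE 0.10, was 0.27 (adjusted p = 0.214). It passed in 1 of 13 alternatives, with the replicate letter as a block in edgeR's model (0.34, adjusted p = 0.0146). After 6 h the log2 fold change was 0.00 (SE 0.09, adjusted p = 0.979), with a 95% interval of the fold from 0.885 to 1.14. Between 6 h and 1 h at 40 °C the log2 difference was -0.27 (SE 0.09, adjusted p = 0.0515). It passed without 40 °C, 1 h replicate D (-0.34, adjusted p = 0.0124), without a filter on low counts (-0.27, adjusted p = 0.0377) and with the block (-0.26, adjusted p = 0.0346). The temperatures at 1 h differed by 0.14 (SE 0.11, adjusted p = 0.319). Ordered by level, 37 °C, 6 h at 40 °C, 1 h at 40 °C and 42.5 °C each stood next to a group from which they did not differ past the threshold, and the call was between the ends of that order.

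Atf6 (ENSCGRG00001005537) encodes the membrane-bound factor ATF6α, whose released part switches on ER chaperone genes, and its own mRNA fell after 6 h at 40 °C. The control libraries A, B and C were at 101.7, 107.8 and 106.0 CPM. In the 1 h group at 40 °C, libraries A to D were at 97.1, 99.1, 95.1 and 95.4 CPM, and at 6 h they were at 89.3, 77.8, 81.7 and 87.8 CPM. The libraries of these 3 groups did not overlap, with 37 °C above 1 h and 1 h above 6 h. At 42.5 °C the values were 109.9, 106.7, 105.2 and 100.1 CPM, around those of the control. The means were 105.2 ± 3.12 CPM (SD, n = 3) at 37 °C, 96.7 ± 1.83 (SD, n = 4) after 1 h at 40 °C, 84.1 ± 5.35 (SD, n = 4) after 6 h at 40 °C and 105.5 ± 4.09 (SD, n = 4) at 42.5 °C.

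After 6 h at 40 °C the level of Atf6 was 0.798 times that at 37 °C (95% interval 0.736 to 0.865), and the log2 fold change was -0.33 (SE 0.06, adjusted p = 0.000356). It passed in 12 of 13 alternatives. Replicate D at 37 °C was at 67.2 CPM, below every other library of the series for this gene, and with it among the controls the log2 fold change was -0.19 (adjusted p = 0.401). After 1 h at 40 °C the log2 fold change was -0.12 (SE 0.04, adjusted p = 0.200), which did not pass. At 42.5 °C it was -0.00 (SE 0.05, adjusted p = 0.961), with a 95% interval of the fold from 0.932 to 1.07. The direct comparison of 6 h with 1 h at 40 °C needs no control library, and there Atf6 was lower at 6 h with a log2 difference of -0.20 (SE 0.05, adjusted p = 0.0117), which passed in all 13 alternatives (-0.23 to -0.17). For 1 h of heat it was higher at 42.5 °C than at 40 °C by 0.12 (SE 0.04, adjusted p = 0.0398). This small difference passed in 5 of 13 alternatives and was lost without replicate A, C or D at 40 °C, or without A, B or C at 42.5 °C (adjusted p of 0.0578 to 0.0892).

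Atf6b (ENSCGRG00001012473) encodes ATF6β, the paralogue of ATF6α, and its highest group mean was 1.09 times its lowest. Controls A, B and C were at 207, 213 and 193 CPM, and the libraries at 42.5 °C were at 200.3, 185, 187 and 178 CPM, with library A inside the control range. Its log2 fold change at 42.5 °C was -0.13 (SE 0.05, adjusted p = 0.0341). The call was lost in 7 of 13 alternatives, among them those without 37 °C replicate A (adjusted p = 0.0976) or B (adjusted p = 0.168), without 42.5 °C replicate B (adjusted p = 0.0950), C (adjusted p = 0.0703) or D (adjusted p = 0.0869), and with control replicate D (-0.10, adjusted p = 0.320). At 40 °C the means were 198 ± 8.85 CPM after 1 h and 192 ± 3.90 after 6 h (SD, n = 4 each), against 204 ± 10.5 (SD, n = 3) at 37 °C. Those log2 fold changes were -0.04 (SE 0.05, adjusted p = 0.732) and -0.09 (SE 0.05, adjusted p = 0.158).

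For the proteases that cut ATF6, the highest group mean was 1.07 (Mbtps1) and 1.09 (Mbtps2) times the lowest. Mbtps1 (ENSCGRG00001022644), which encodes site-1 protease, was between 239.5 and 266.5 CPM in all 15 libraries, with means of 261 ± 4.73 CPM (SD, n = 3) at 37 °C, 255 ± 2.86 after 1 h at 40 °C, 244.5 ± 4.59 after 6 h at 40 °C and 260.1 ± 6.73 at 42.5 °C (SD, n = 4 each). The 6 h libraries, at 239.5 to 250.5 CPM, lay below the control libraries, at 256 to 265.5 CPM, with a log2 fold change of -0.10 that did not pass (SE 0.04, adjusted p = 0.102). At the other temperatures and times its log2 fold change was -0.03 and -0.01. Mbtps2 (ENSCGRG00001018020), which encodes site-2 protease, was between 48.3 and 59.6 CPM, and its group ranges overlapped throughout. Its log2 fold changes were -0.06 after 1 h at 40 °C, -0.13 (SE 0.07, adjusted p = 0.169) after 6 h at 40 °C and -0.12 (SE 0.06, adjusted p = 0.120) at 42.5 °C. The RefSeq span of Mbtps2 overlaps Yy2, which has no row by name in the counts.

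Eif2ak3 (ENSCGRG00001010143) encodes PERK, the kinase that slows translation under ER stress. Its control libraries A, B and C were at 48.1, 45.9 and 43.6 CPM, and the 12 heated libraries lay between 46.5 and 52.0 CPM. Mean levels were 45.9 ± 2.22 CPM (SD, n = 3) at 37 °C, 48.9 ± 2.14 after 1 h at 40 °C, 48.9 ± 0.805 after 6 h at 40 °C and 48.8 ± 2.17 at 42.5 °C (SD, n = 4 each). The log2 fold changes of 0.09, 0.09 and 0.08 did not pass (adjusted p of 0.492, 0.282 and 0.278). At 42.5 °C the 95% interval of the fold ran from 0.971 to 1.15, and after 6 h at 40 °C, where its libraries (48.1 to 49.7 CPM) did not overlap the controls, from 0.975 to 1.16.

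Creb3l2 encodes a membrane-bound factor of the CREB3 family that acts in secretory cells, and its 0 counts allow a level of up to 0.286 CPM in the library with the lowest total. Of the related genes, Creb3l1 was at 78.6 CPM at 37 °C, 77.3 after 1 h at 40 °C, 72.6 after 6 h at 40 °C and 73.9 at 42.5 °C, and it passed in none of these comparisons (adjusted p of 0.931, 0.172 and 0.184).

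**Figure D2:**
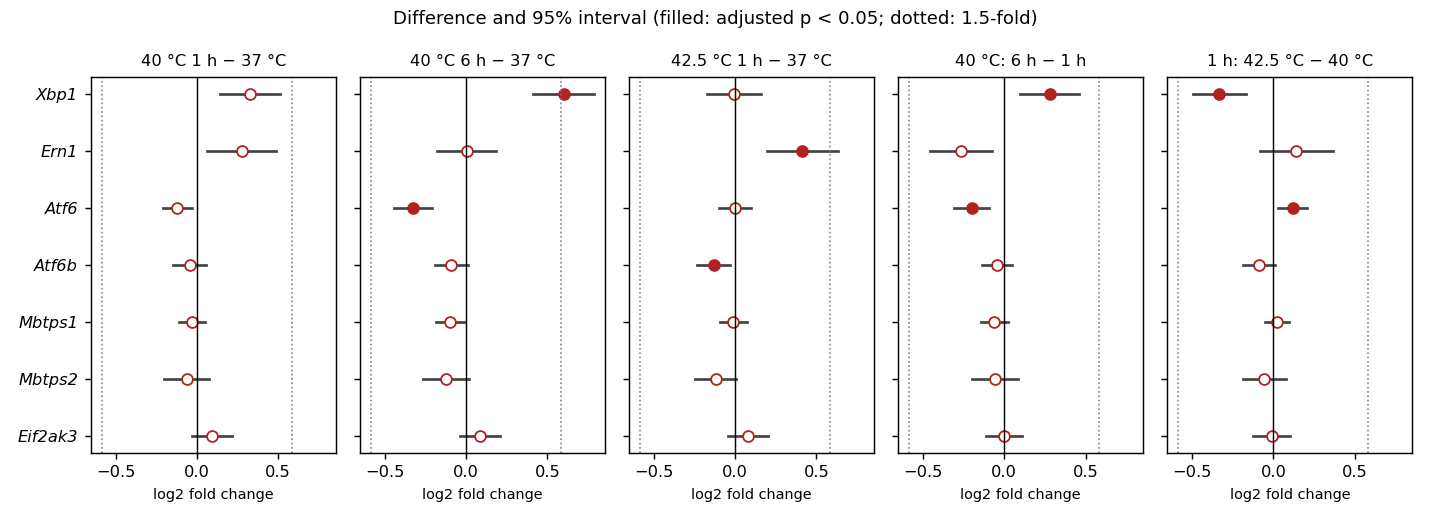
Log2 fold change of the 7 genes in the 5 comparisons, with points for the estimate of edgeR, lines for its 95% interval and filled points for an adjusted p under 0.05. Xbp1 stands at 0.60 after 6 h at 40 °C and at -0.01 at 42.5 °C, Atf6 at -0.33 and -0.00, and Ern1 at 0.00 and 0.41, whereas the intervals of Mbtps2 and Eif2ak3 include 0 in all 5.

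Counted together, 0 of the 7 genes passed after 1 h at 40 °C, where 1.64% of 10494 tested genes did, and 0 were DEGs, beside 0.334%. At an unadjusted p under 0.05 there were 3, Xbp1, Ern1 and Atf6, and the Wald test of DESeq2 passed 1, Xbp1. The share of all genes is not given for either of these, so neither count is read as an excess. After 6 h at 40 °C 2 of 7 passed, Xbp1 higher and Atf6 lower, beside 29.4% of all genes, and 1 was a DEG, beside 3.11%. At 42.5 °C 2 of 7 passed, Ern1 higher and Atf6b lower, beside 43.1% of all genes, and 0 were DEGs, beside 7.51%. The counts of 0 DEGs were 0 in each of 13 alternatives too, the Wald test of DESeq2 among them. The share of the 7 genes that passed was thus near or below that of all genes, and their median log2 fold changes of -0.03, -0.09 and -0.01 lay beside medians near 0.00 over all genes. The libraries of heated and control cells did not overlap for 1 of 7 genes after 1 h at 40 °C (13.4% of all genes), for 4 of 7 after 6 h (36.2%) and for 1 of 7 at 42.5 °C (46%). Between 6 h and 1 h at 40 °C 2 of 7 passed, Xbp1 and Atf6 in opposite directions (18.5% of all genes), 0 were DEGs (1.28%) and 2 did not overlap (21.3%). Between 42.5 °C and 40 °C at 1 h 2 of 7 passed, again Xbp1 and Atf6 in opposite directions (36.1%), 0 were DEGs (5.27%) and 2 did not overlap (34.1%).

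The remaining genes of the pathway were taken from 8 lists written from general knowledge, with earlier results of these data known. The counts and medians of a list, and differences between lists, depend on which genes were placed in it. Some genes stand in more than 1 list, namely Hspa5, Pdia6, Dnajc3 and Dnajb9. With control replicate D, fewer genes passed over all genes too, 4 in place of 172 after 1 h at 40 °C. After 6 h it was 1122 in place of 3091, and at 42.5 °C 1895 in place of 4510. Lower list counts with that library, given below, are thus not particular to a list. In the ATF6 arm, 11 of 14 tested target genes rose after 6 h at 40 °C and 0 fell, with a median log2 fold change of 0.52, beside 14.7% of all genes that passed as higher. The highest were Hspa5, the chaperone BiP that holds the sensors inactive (1.13, SE 0.10, adjusted p = 1.6e-06), the disulfide isomerase Pdia4 (0.97, SE 0.09, adjusted p = 1.09e-06) and Manf, a secreted ER protein (0.81, SE 0.08, adjusted p = 3.56e-06). With control replicate D the count was also 11 of 14. After 1 h at 40 °C 1 of 14 passed, Manf (0.25, adjusted p = 0.0276), beside 1.07% of all genes that passed as higher, and this call was lost without 37 °C replicate B (adjusted p = 0.164) or C (adjusted p = 0.0938), without 40 °C, 1 h replicate A (adjusted p = 0.0718), C (adjusted p = 0.0932) or D (adjusted p = 0.0586), and with control replicate D (adjusted p = 0.929). At 42.5 °C 7 of 14 rose, beside 20.8% of all genes, led by Hspa5 (0.29), Hsp90b1 (0.25) and Dnajc3 (0.23), with a median of 0.11. Another 2 fell, beside 22.3% of all genes, the ubiquitin ligase Syvn1 (-0.79, SE 0.08, adjusted p = 1.6e-06) and its partner Sel1l (-0.27), both of ER-associated degradation. With control replicate D, 2 of the 14 rose and 1 fell at 42.5 °C, and the named genes that no longer passed were Hspa5 (0.22, adjusted p = 0.133), Hsp90b1 (0.18, adjusted p = 0.162) and Sel1l (-0.07, adjusted p = 0.853). Herpud1, also of ER-associated degradation, had log2 fold changes of 0.28, -0.15 and -0.05 (adjusted p of 0.190, 0.163 and 0.715). Hspa5 after 1 h at 40 °C was at 0.20 (SE 0.05, adjusted p = 0.0797 by edgeR). This did not pass, but it did in 4 of 13 alternatives.

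**Figure D3:**
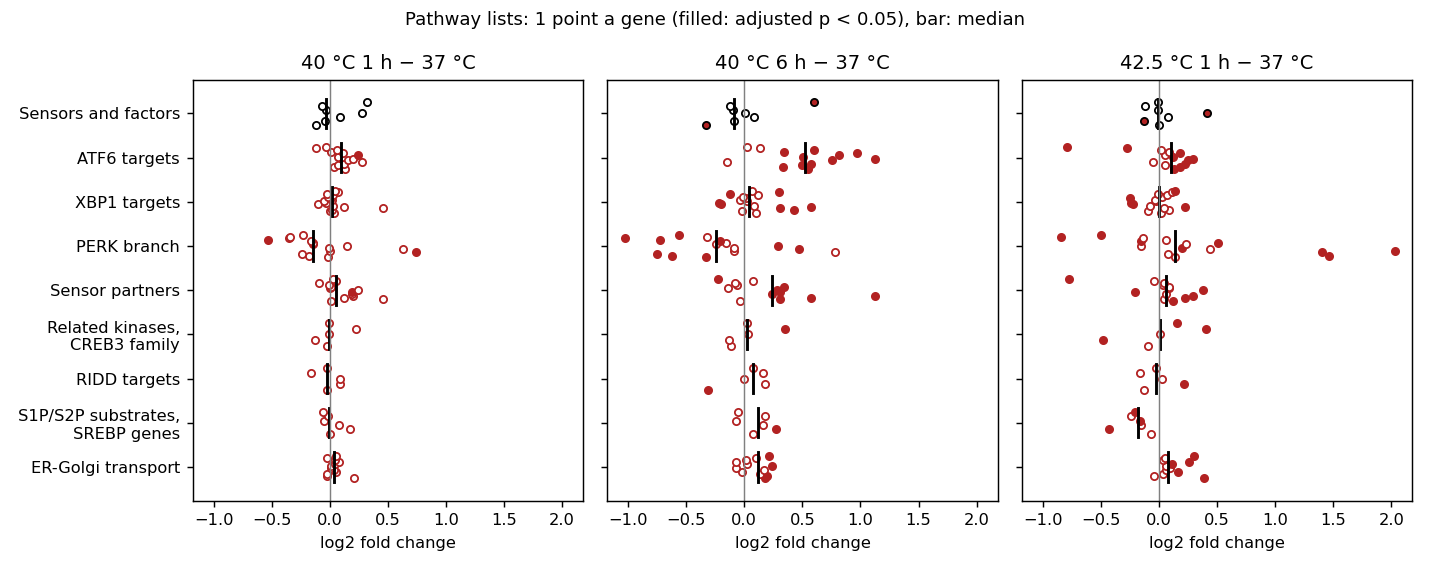
Log2 fold change against 37 °C of the 7 genes with values (top row) and of every tested gene in the 8 pathway lists, with points for genes, filled where the adjusted p was under 0.05, and bars for the list's median. ATF6 target genes have a median of 0.09 after 1 h at 40 °C, 0.52 after 6 h at 40 °C and 0.11 at 42.5 °C, whereas XBP1 target genes have medians of 0.02, 0.04 and 0.00.

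Of 16 tested target genes of XBP1, 0 passed after 1 h at 40 °C, beside 1.64% of all genes. After 6 h, when Xbp1 mRNA was at its highest, 14.7% of all genes passed as higher and 14.8% as lower. Of the 16 target genes, 4 rose and 3 fell then, with a median of 0.04. Those that rose were Dnajc3 (0.57, SE 0.06, adjusted p = 2.64e-06) and Dnajb11 (0.42, SE 0.06, adjusted p = 0.000147), both co-chaperones of BiP, the translocon protein Ssr3 (0.30) and Dnajb9 (0.31, adjusted p = 0.0433), a co-chaperone that represses IRE1. Hspa13 (-0.22), Edem2 (-0.20) and Ssr1 (-0.12) fell. The call of Dnajb9 was lost without 37 °C replicate A (adjusted p = 0.216) or B (adjusted p = 0.0858) and without 40 °C, 6 h replicate A (adjusted p = 0.0731), C (adjusted p = 0.0819) or D (adjusted p = 0.117). After 1 h at 40 °C Dnajb9 was at 0.46 (SE 0.12, adjusted p = 0.0770 by edgeR), which did not pass, but it did in 4 of 13 alternatives. At 42.5 °C 2 of 16 rose, Dnajc3 and Stt3a (0.14), beside 20.8% of all genes. Another 3 fell, Sec61a1 (-0.25), Hspa13 (-0.24) and Edem2 (-0.23), beside 22.3% of all genes, and Dnajb9 had a log2 fold change of 0.05 (adjusted p = 0.831). With control replicate D, 3 rose and 1 fell after 6 h at 40 °C, and 1 rose and 1 fell at 42.5 °C. The calls of Dnajb9 (adjusted p = 0.192), Hspa13 (adjusted p = 0.115) and Ssr1 (adjusted p = 0.230) after 6 h were lost with it, as were those of Sec61a1 (-0.13, adjusted p = 0.493), Hspa13 (adjusted p = 0.0666) and Stt3a (adjusted p = 0.0604) at 42.5 °C. Of 5 genes known as targets of IRE1-dependent mRNA decay, 0 passed after 1 h at 40 °C, beside 1.64% of all genes. After 6 h 1 of them fell (Col6a1, -0.31), beside 14.8% of all genes, and at 42.5 °C 1 rose (Hgsnat, 0.21), beside 20.8%. Including control replicate D, 0 of these 5 passed at either, Col6a1 being at -0.22 (adjusted p = 0.320) and Hgsnat at 0.21 (adjusted p = 0.0652). Rtcb, the ligase that joins the exons of Xbp1 after IRE1 has cut it, had log2 fold changes of -0.01, -0.06 and 0.03 (adjusted p of 0.945, 0.358 and 0.527).

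In the PERK branch, 15 genes were tested. After 6 h at 40 °C 2 rose and 7 fell, with a median of -0.24, beside 14.7% of all genes that passed as higher and 14.8% as lower. The genes that fell were led by the cystine transporter Slc7a11 (-1.03, SE 0.17, adjusted p = 0.000265), Atf4 (-0.75, SE 0.07, adjusted p = 2.68e-06), the factor whose translation PERK favours, and the stress protein Sesn2 (-0.72, SE 0.12, adjusted p = 0.000345). Those that rose were Ddit3, which encodes CHOP (0.47, SE 0.14, adjusted p = 0.0188), and Nfe2l2 (0.29). The call of Ddit3 was lost without 37 °C replicate B (0.36, adjusted p = 0.114) or 40 °C, 6 h replicate C (0.43, adjusted p = 0.0530), and with control replicate D (0.20, adjusted p = 0.584). With that library 0 of the 15 rose and 4 fell, and Nfe2l2 was at 0.25 (adjusted p = 0.0687). The other values of Ddit3 were 0.63 after 1 h at 40 °C (adjusted p = 0.123) and 0.44 at 42.5 °C (adjusted p = 0.120), and Atf4 was at -0.24 after 1 h at 40 °C (adjusted p = 0.448), none of which passed. Ddit3 did pass in 3 of 13 alternatives after 1 h at 40 °C and in 2 of 13 at 42.5 °C. At 42.5 °C 5 rose and 3 fell, with a median of 0.13, beside 20.8% of all genes that passed as higher and 22.3% as lower. The leading genes of the list were the glutathione-degrading enzyme Chac1 (2.03, SE 0.25, adjusted p = 1.56e-05) and the factors Atf3 (1.47, SE 0.21, adjusted p = 5.41e-05) and Cebpb (1.41, SE 0.18, adjusted p = 2.28e-05). Ppp1r15a, which encodes GADD34, the phosphatase subunit that reverses the action of PERK on eIF2α, also rose at 42.5 °C (0.51, SE 0.09, adjusted p = 0.000222), and its log2 fold changes of -0.15 after 1 h and -0.16 after 6 h at 40 °C did not pass (adjusted p of 0.404 and 0.144). Trib3 (-0.84), Vldlr (-0.50) and Ppp1r15b (-0.16) fell there, and Atf4 had a log2 fold change of 0.08 (adjusted p = 0.449). Among the alternatives, Atf4 passed at 42.5 °C only without 37 °C replicate C (0.20, adjusted p = 0.0308). Including control replicate D, 4 rose and 2 fell at 42.5 °C, and Ppp1r15b was at -0.08 (adjusted p = 0.612). The earlier time at 40 °C had 1 gene that rose, Cebpb (0.74, adjusted p = 0.0393), and 1 that fell, Sesn2 (-0.53, adjusted p = 0.0332). Over all genes 1.07% passed there as higher and 0.572% as lower. Neither Cebpb nor Sesn2 passed with control replicate D. Several single libraries ended those calls too, which for Cebpb were 37 °C replicates A, B and C and 40 °C, 1 h replicates C and D (adjusted p of up to 0.205), and for Sesn2 37 °C replicates A and C and 40 °C, 1 h replicates A, C and D (adjusted p of up to 0.145).

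Partners and regulators of the sensors were tested for 13 genes, of which 1 rose after 1 h at 40 °C, 7 rose and 1 fell after 6 h and 4 rose and 2 fell at 42.5 °C, with medians of 0.05, 0.24 and 0.06. Over all genes 1.07% passed as higher after 1 h at 40 °C. After 6 h 14.7% of all genes passed as higher and 14.8% as lower, and at 42.5 °C 20.8% and 22.3%. Nfya, a subunit of the factor NF-Y that binds DNA beside ATF6, was higher at 40 °C after 1 h (0.20, adjusted p = 0.0387) and after 6 h (0.31, adjusted p = 0.00212) and lower at 42.5 °C (-0.21, adjusted p = 0.00285). The subunit Nfyb was higher after 6 h at 40 °C (0.28, adjusted p = 0.0395) and at 42.5 °C (0.38, adjusted p = 0.00653). The call of Nfya after 1 h was lost without any 1 of 37 °C replicates A, B and C or of 40 °C, 1 h replicates A, C and D (adjusted p of up to 0.242). Wfs1, an ER membrane protein that promotes the degradation of ATF6, fell at 42.5 °C (-0.78, SE 0.09, adjusted p = 5.16e-06) and by less after 6 h at 40 °C (-0.23, adjusted p = 0.0213). With control replicate D the counts for these 13 genes were 0 after 1 h at 40 °C, 5 higher and 0 lower after 6 h, and 1 higher and 1 lower at 42.5 °C. The rise of Nfya after 6 h passed with it (0.34, adjusted p = 0.0275), whereas Nfya after 1 h (adjusted p = 0.316), Wfs1 (adjusted p = 0.142) and Nfyb (0.15, adjusted p = 0.507) after 6 h, and Nfya (adjusted p = 0.105), Nfyb (adjusted p = 0.199) and Hspa5 at 42.5 °C did not.

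Among 5 tested kinases related to PERK and factors related to CREB3, Eif2ak2, the kinase PKR, rose after 6 h at 40 °C (0.35, adjusted p = 0.0403) and at 42.5 °C (0.41, adjusted p = 0.0137), from a level of 6.30 CPM at 37 °C. Its call after 6 h was lost without any 1 of 37 °C replicates A, B and C or 40 °C, 6 h replicates A and C (adjusted p of up to 0.135), and that at 42.5 °C without 37 °C replicate B (adjusted p = 0.0587). Eif2ak4 rose (0.16) and Crebzf fell (-0.48, adjusted p = 0.000765) at 42.5 °C, and 0 of the 5 passed after 1 h at 40 °C, beside 1.64% of all genes. In all, 1 of the 5 passed after 6 h and 3 at 42.5 °C, beside 29.4% and 43.1% of all genes. With control replicate D, 0 of the 5 passed after 6 h, where Eif2ak2 was at 0.33 (adjusted p = 0.0822), and at 42.5 °C 1 rose and 0 fell, with Eif2ak4 at 0.13 (adjusted p = 0.187) and Crebzf at -0.35 (adjusted p = 0.146). SREBP processing uses the same site-1 and site-2 proteases. Of 6 genes for site-1 or site-2 protease substrates and SREBP processing, 0 passed after 1 h at 40 °C, beside 1.64% of all genes. After 6 h 1 of them rose, beside 14.7% of all genes, namely Insig1 (0.27, adjusted p = 0.0401), which retains SREBP in the ER. At 42.5 °C 3 fell, beside 22.3% of all genes, namely Insig1 (-0.43, SE 0.10, adjusted p = 0.00259), Srebf2 (-0.21) and Scap (-0.16). When control replicate D was included, 0 passed after 6 h, Insig1 being at 0.21 (adjusted p = 0.252), and 1 fell at 42.5 °C, with Srebf2 at -0.11 (adjusted p = 0.495) and Scap at -0.07 (adjusted p = 0.646). The call of Insig1 after 6 h was lost without any 1 of 37 °C replicates A, B and C or 40 °C, 6 h replicates C and D (adjusted p of up to 0.168). Of 12 genes of transport between ER and Golgi, the route that ATF6 and the CREB3 factors take, 0 passed after 1 h at 40 °C, 4 rose after 6 h and 5 rose at 42.5 °C, with 0 lower. Over all genes 1.64% passed after 1 h at 40 °C. After 6 h 14.7% of all genes passed as higher and 14.8% as lower, and at 42.5 °C 20.8% and 22.3%. In the 5 lists where 0 genes passed edgeR's test after 1 h at 40 °C, 44 genes in all, 3 had an unadjusted p under 0.05 (Dnajb9, Insig1 and Arf4), and the Wald test of DESeq2 passed 1. The share of all genes is not given for either, so these counts are not read as an excess. Sec31a, of the COPII coat, was among the risen genes both after 6 h at 40 °C and at 42.5 °C (0.21 and 0.30), with Sec23a at 6 h (0.24) and Arf4 at 42.5 °C (0.39). With control replicate D, 2 of these 12 rose after 6 h and 2 at 42.5 °C.

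Several smaller changes named above also rested on single libraries. After 6 h at 40 °C, the call of Wfs1 was lost without 37 °C replicate A, B or C or heated replicate B or D (adjusted p of up to 0.0753), that of Ssr1 without 37 °C replicate A, B or C or heated replicate A, B or C (up to 0.159), that of Nfyb without 37 °C replicate A or B or heated replicate B, C or D (up to 0.147), that of Col6a1 without 37 °C replicate A or B or heated replicate B or C (up to 0.194), and that of Edem2 without 37 °C replicate A (0.0725). At 42.5 °C, the call of Ppp1r15b was lost without 37 °C replicate C or heated replicate B or C (up to 0.0818), that of Eif2ak4 without 37 °C replicate A or B (up to 0.138), that of Hgsnat without 37 °C replicate B or C (up to 0.0711), and that of Scap without 37 °C replicate B (0.0627).

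Likeness of pattern was measured as Pearson's r of log2 CPM over the 15 libraries with each of 10578 other genes, as a description. The genes most like Xbp1 were Mettl16 (r = 0.943), Mmadhc (0.933) and Rbm39 (0.925), those most like Ern1 were Dedd2 (0.925), Zbtb21 (0.917) and Dusp8 (0.916), and those most like Atf6 were Opa1 (0.971), Hivep1 (0.962) and Ubr3 (0.954). For Mbtps1 they were Pnpla2 (0.950), Slc7a11 (0.944) and Abl2 (0.900). The closest gene was at 0.881 for Atf6b (Fmnl3), 0.874 for Mbtps2 (Ifi44) and 0.889 for Eif2ak3 (Ranbp10). These libraries share 4 treatments, so genes that differ between treatments in the same order score high. Among the 7 genes themselves, Xbp1 and Atf6 had r = -0.88 over the 15 libraries and -0.37 after the group means were subtracted, and Atf6 and Mbtps1 had 0.83 and 0.25. Ern1 and Eif2ak3 had 0.59 and, within groups, 0.74.

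**Figure D4:**
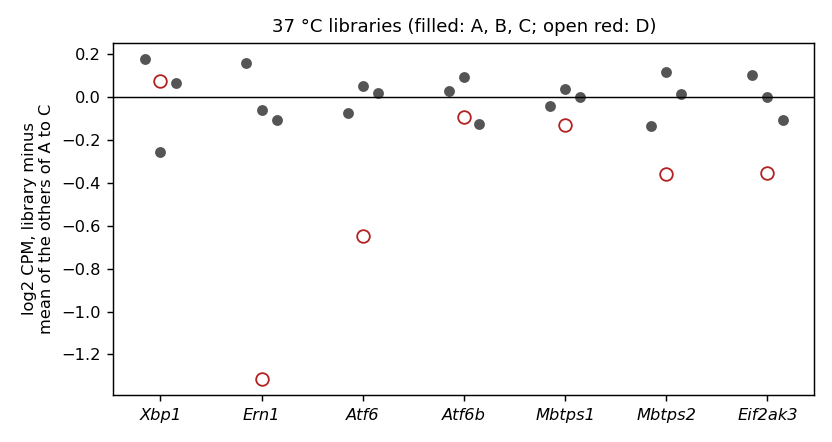
Level of the 7 genes in each 37 °C library, as the difference of its log2 CPM from the mean of the other libraries among A, B and C, with filled points for A to C and open points for D. Replicate D is lowest for Ern1 (-1.31) and Atf6 (-0.65), while for Xbp1 (0.07) it lies within the range of A to C.

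The excluded control library stood below the range of replicates A to C for 6 of the 7 genes. The difference of replicate D from their mean was largest for Ern1, at -1.31 on the log2 scale, followed by Atf6 at -0.65, Mbtps2 and Eif2ak3 at -0.36 each, Mbtps1 at -0.13 and Atf6b at -0.09. Xbp1, with 414 counts and 36.8 CPM, was within their range, and its rise after 6 h at 40 °C passed with replicate D among the controls (0.58, adjusted p = 0.00861).

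**Figure D5:**
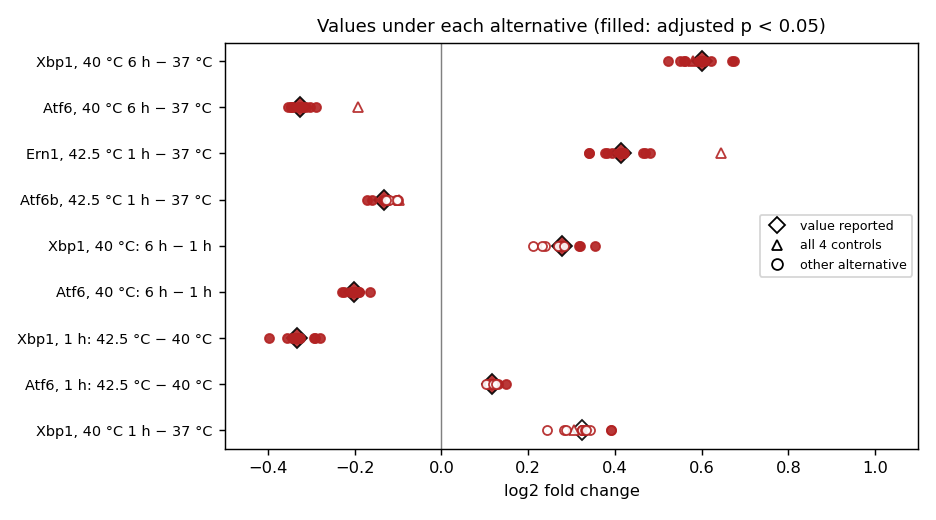
Log2 differences of the gene and comparison pairs that passed the test and of Xbp1 after 1 h at 40 °C against 37 °C, with 1 point for each of the 13 alternative analyses and for the value as reported, filled where the adjusted p was under 0.05, and triangles for the fits with all 4 control libraries. The rise of Xbp1 after 6 h at 40 °C lies between 0.52 and 0.68 with every point filled, whereas with all 4 control libraries Ern1 at 42.5 °C moves to 0.65 and Atf6 after 6 h to -0.19, both open.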

How the data were processed

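Total RNA of CHO cells was sequenced by the study as paired-end libraries on an Illumina NextSeq. In CLC Genomics Workbench, the authors trimmed and aligned the reads with genome CHOK1GS_HDv1 of the Chinese hamster, and they deposited raw read counts per gene, whole numbers without normalization, for 16 libraries. Annotation release, strandedness and the treatment of reads with several mapping places are not given in the sources used here. Total counts were 10504192 to 14668365 per library.

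The quasi-likelihood test of edgeR 4.0.16 (R 4.3.3) was run on the libraries of both groups compared, with TMM normalization, filterByExpr at its defaults and Benjamini-Hochberg adjustment over the 10439 to 10499 genes tested. The fit ran on all genes and the values of the described genes were read from it. Standard errors are the log2 fold change divided by the square root of the F statistic, and 95% intervals use the t distribution on the total degrees of freedom. The biological coefficient of variation was 0.0487 to 0.0556. Replicate D at 37 °C was left out, as in the study, and enters 1 alternative. Comparisons were each heated group with 37 °C, 6 h with 1 h at 40 °C, and 42.5 °C with 40 °C at 1 h. Comparisons with 37 °C share their control libraries. Replicate letters come from the labels and were not used as pairs, because same-letter libraries did not all correlate by over 0.1 after the group means were subtracted (-0.05 to 0.18).

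As alternatives, the Wald test of DESeq2 1.42.0, its size factors, a block for the replicate letter, 1 fit over all groups, all 4 control libraries and no filter were used, and single libraries were left out. For log2 CPM a prior count of 2 was used. The genes described and the pathway lists were chosen with earlier results of these data known. In addition to all the sensor and factor genes, named genes are up to 3 with the largest change each way among those that passed in each list and comparison with 37 °C, and Hspa5, Dnajb9, Herpud1, Atf4, Ddit3, Ppp1r15a and Rtcb whatever their values. Ssr3, Creb3l1, Maml3 and the values of Nfya and Nfyb after 6 h at 40 °C were added after they were seen. The fit was also run on simulated counts with the same dispersion for every gene, no replicate structure and no outlier library. That run does not show how the fit handles those features. RefSeq's CriGri-PICRH-1.0, another build, was used by symbol for overlapping genes only. No sequence is shown, since the files used here hold none for these genes.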

Additional observations from a re-analysis of the deposited data

Results flagged for a closer look

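Atf6 in 37 °C replicate D, at 67.2 CPM, stood apart from the other control libraries, at 101.7 to 107.8 CPM. Its gap to the nearest library was 0.851 of the group's range, above Dixon's 95% critical value for 4 samples. The 7 genes were examined in 28 groups of 4 libraries with replicate D included, and chance alone would mark about 1 in 20. With this library among the controls the fall of Atf6 after 6 h at 40 °C no longer passed, as given above. The part of RNA quality or handling in this library was not tested.

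The level of Xbp1 at 40 °C differed between durations, being 0.28 higher on the log2 scale at 6 h than at 1 h (adjusted p = 0.0311 by edgeR). With single libraries left out, this difference passed in 3 of 8 fits. Xbp1 was above every 1 h library in 3 of 4 libraries at 6 h.

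The level of Atf6 at 40 °C also differed between durations, with a log2 difference of -0.20 between 6 h and 1 h (adjusted p = 0.0117 by edgeR). All 4 libraries at 6 h were below all 4 at 1 h. Both differences compare heated libraries directly and do not depend on the control libraries.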

How the results depend on the processing

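For the 7 genes, 455 alternative values were computed, of which 398 kept direction and side of the threshold, 22 lost the call, 8 gained it and 27, none of them passing, changed sign. For the pathway genes the counts were 771, 112, 18 and 9 of 910. The number of the 7 genes that passed was 0 after 1 h at 40 °C and became 1 by the Wald test of DESeq2, 1 without a filter, 2 with the replicate letter as a block (Xbp1 and Ern1, the latter at 0.34 with adjusted p = 0.0146), and 0 to 1 with each library left out. After 6 h at 40 °C it was 2, and 1 with all 4 control libraries, while the 1 DEG became 0 with the block (0.55 for Xbp1), 0 with all 4 control libraries and 0 to 1 with each library left out. At 42.5 °C it was 2, and 1 by the Wald test, 0 with all 4 control libraries and 1 to 2 with each library left out. For 6 h against 1 h at 40 °C, 2 passed, and 3 without a filter or with the block (Ern1 added) and 1 to 2 with each library left out. Between 42.5 °C and 40 °C it was 2, and 1 by the Wald test, 1 without a filter and 1 to 2 with each library left out.

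Over all genes, 172 passed after 1 h at 40 °C, and 323 without a filter, 107 in 1 fit over all groups, 634 with the block, 4 with all 4 control libraries and 63 to 276 with each library left out. DEGs there were 35, and 3 with all 4 control libraries and 23 to 56 with each library left out. With all 4 control libraries 1122 genes in place of 3091 passed after 6 h at 40 °C and 1895 in place of 4510 at 42.5 °C. Between 6 h and 1 h at 40 °C 1931 passed, and 1282 to 2080 with each library left out. The cause of these shifts was not tested. What libraries with the same replicate letter have in common is not stated in the labels. Between 1 h at 40 °C and 37 °C, same-letter libraries correlated at 0.09 to 0.18, with a mean of 0.14 beside -0.05 for different letters. The block changed no other call among the 7 genes besides those named and Ern1 between 6 h and 1 h at 40 °C (-0.26, adjusted p = 0.0346) and Xbp1 after 1 h at 40 °C (0.33, adjusted p = 0.00083).

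Signs changed for values near 0. With all 4 control libraries the log2 fold change was 0.014 for Atf6 and 0.017 for Mbtps2 after 1 h at 40 °C, and 0.14 for Atf6, 0.032 for Mbtps1 and -0.011 for Rtcb at 42.5 °C. Atf6 at 42.5 °C was also 0.000718 with DESeq2's size factors, 8.97e-06 by its Wald test, 0.0039 in 1 fit and 0.023 with the block. Dnajb9 was -0.17 there with the block, and Ern1 after 6 h at 40 °C was -0.0015 without a filter. With each library left out, the log2 fold change ran from -0.036 to 0.010 for Rtcb after 1 h at 40 °C and from -0.027 to 0.065 for Ern1 after 6 h. At 42.5 °C it ran from -0.089 to 0.056 for Xbp1, from -0.029 to 0.025 for Atf6, from -0.025 to 0.0082 for Mbtps1, from -0.0019 to 0.20 for Atf4, from -0.17 to 0.15 for Dnajb9 and from -0.19 to 0.023 for Herpud1. For Eif2ak3 it ran from -0.017 to 0.031 between 6 h and 1 h at 40 °C and from -0.034 to 0.020 between 42.5 °C and 40 °C. Depth limits Ern1 most, with a counting error of 6.05% to 6.87% per library against 1.71% to 1.87% for Mbtps1.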
